A study of Mus musculus with 6 samples.

Results

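The 8 genes described here encode intermediate filament proteins: the lens beaded filament proteins Bfsp1 and Bfsp2, the simple epithelial keratins Krt8 and Krt18, vimentin (Vim), and the lamins Lmna, Lmnb1 and Lmnb2. They were taken by symbol from a count table of 25239 genes. Bfsp1 was selected on its measured counts, for a low ratio of phthalate to water, and the other 7 genes were added as its family, so the Bfsp1 difference between the groups is given as a description. The table holds 6 libraries of mouse germinal vesicle (GV) oocytes, 3 injected with water and 3 injected with a mixture of phthalate metabolites, the products the body makes from plasticizers. The oocytes came from female CD-1 mice of 4 to 6 weeks, an outbred strain with no engineered allele stated. All were injected as cumulus-oocyte complexes, that is, oocytes still inside their follicle cells, and kept in a maturation medium with follicle-stimulating hormone until collection at the GV stage, when the nucleus is intact. The labels state neither the dose nor the members of the mixture. RNA was copied from an oligo(dT) primer and amplified with Smart-seq3, a single-cell method. Since no animal or culture is given in the labels, a group of 3 libraries stands for 1 sample: no difference below was tested, and the libraries are called oocytes after their titles.

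Intermediate filaments are ropes of coiled-coil proteins that give cells and nuclei mechanical strength. Cytoplasmic filaments differ by cell type: keratins fill epithelial cells, vimentin fills many mesenchymal cells, and Bfsp1 (filensin) and Bfsp2 (phakinin) pair to form the beaded filament of lens fibre cells. Lamins form the meshwork under the inner nuclear membrane that must be taken apart when the nucleus of a GV oocyte breaks down.

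Libraries held between 252267 and 300917 gene counts, and levels are given as CPM, the number of counts of a gene in every 1000000 gene counts of a library. Counts of 2 outnumbered counts of 1 throughout, with 1542 to 1645 genes against 405 to 457 per library, so each sequenced fragment appears to have been counted as a pair of mates. Intervals are therefore exact 95% intervals on sums halved to read pairs, and they cover counting error only. All 12 oocyte markers examined had counts, led by Gdf9, an oocyte-secreted growth factor, with from 2184 to 3296 counts per library, and none was past 2-fold between the groups (median log2 ratio -0.083). H1f8, the oocyte linker histone, had from 1716 to 2516 counts, and Ooep, a protein of the subcortical maternal complex, from 820 to 1054. The 20 cumulus and granulosa markers summed to 5, 0 and 4 counts over water oocytes 1 to 3 and to 3, 9 and 2 over phthalate oocytes 1 to 3, and 13 of the 20 were at 0 in every library, among them Amh and Foxl2. These sums leave out Nr5a2, a nuclear receptor of granulosa cells, which earlier results had shown in these libraries: it had 32, 23 and 9 counts with water and 16, 15 and 8 with phthalate, a log2 ratio of -0.64 (-1.49 to 0.24). With it the 21 markers summed to 37, 23 and 13 counts against 19, 24 and 10. Its part in the results below was not tested. Markers of stroma, theca and surface epithelium gave 4 counts with water and 0 with phthalate, with 11 of 12 markers at 0. Of 7 immune and endothelial markers, 5 were at 0, and only Pecam1, an endothelial adhesion molecule, passed the filter on low counts, with 9, 25 and 11 counts against 12, 8 and 12.

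Bfsp1 (ENSMUSG00000027420.13) lies on chromosome 2 at positions 143826528 to 143863173 of the GRCm38 assembly, on the minus strand. Its main transcript has 8 exons and 2372 bases. The ribosomal pseudogene Rps13-ps6 sits inside intron 2 of that transcript, and the RefSeq table places Gm33648 and Gm11686 over a longer form of the gene. These 3 genes have no row in the count table, and with strand use unstated, reads from them and from Bfsp1 cannot be told apart.

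The 250 bases before an annotated start of 3 members are printed because these members mark the ends of the measured range: Bfsp1 for its low ratio, Lmna for the highest counts of the 8 genes, and Vim for counts of 0 throughout. They come from RefSeq (GRCm38.p6), which held windows for 7 of the 8 genes, and run 5′ to 3′ on the strand of each gene: chr2:143863174-143863423 on the minus strand for Bfsp1, chr3:88503353-88503602 on the minus strand for Lmna, and chr2:13574061-13574310 on the plus strand for Vim. Capitals mark matches on either strand to 4 motifs: TATAAA for the TATA box, GGGCGG for the GC box, the CCAAT box by its own letters, and TAATTG as a core bound by the oocyte homeobox factor NOBOX.
Bfsp1: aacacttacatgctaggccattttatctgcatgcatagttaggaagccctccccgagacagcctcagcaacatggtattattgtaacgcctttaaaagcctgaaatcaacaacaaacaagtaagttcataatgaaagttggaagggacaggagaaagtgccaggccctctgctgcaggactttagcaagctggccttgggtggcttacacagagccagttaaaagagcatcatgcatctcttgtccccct
Lmna: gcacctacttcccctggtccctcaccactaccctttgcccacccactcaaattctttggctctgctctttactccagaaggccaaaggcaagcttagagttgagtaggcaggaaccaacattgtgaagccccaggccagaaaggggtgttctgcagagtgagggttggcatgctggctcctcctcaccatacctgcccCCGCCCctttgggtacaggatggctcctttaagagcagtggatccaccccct
Vim: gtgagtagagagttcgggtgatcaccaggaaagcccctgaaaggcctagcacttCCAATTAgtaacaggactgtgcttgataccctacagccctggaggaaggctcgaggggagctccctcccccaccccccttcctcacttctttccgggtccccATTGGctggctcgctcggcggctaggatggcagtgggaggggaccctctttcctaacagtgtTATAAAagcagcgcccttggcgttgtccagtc

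The Bfsp1 window held none of the 4 motifs and 2 CpG dinucleotides, against a median of 6 CpG over 32851 promoter windows of the same length. The Lmna window held 1 GC box and 1 CpG. RefSeq has a second Lmna window, chr3:88493313-88493562, with 1 CCAAT box, 0 GC boxes and 4 CpG; the printed one lies nearest the start of the longest coding transcript. The Vim window held 1 TATA box, 2 CCAAT boxes and 1 TAATTG, of which the last overlaps a CCAAT box, and it held 8 CpG. Among all windows, 12.4% held the TATA box, 32.7% the GC box, 33.8% the CCAAT box and 7.17% TAATTG. Part of Gm33648 lies within the Bfsp1 window. These matches describe letters only, and nothing about binding in the oocyte was measured.

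Bfsp1 messenger RNA was measured in all 3 water oocytes and was lower in all 3 phthalate oocytes. Water oocytes 1, 2 and 3 had 54, 30 and 34 counts, and phthalate oocytes 1, 2 and 3 had 16, 0 and 9. In CPM these were 200.4, 99.7 and 119.8 against 63.4, 0 and 32.7, so the groups did not overlap: the lowest water oocyte lay above the highest phthalate oocyte. The sums were 118 counts for water and 25 for phthalate, so the level was 4.49-fold lower in phthalate, a log2 ratio of -2.17 (interval -3.10 to -1.23). On the counts as deposited the interval was -2.85 to -1.53.

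Few genes had ratios this far from 0. Of the 4644 genes that passed a filter on low counts (edgeR's filterByExpr), 1.64% were lower in phthalate by at least 2-fold and 1.14% were higher by at least 2-fold, and 5.49% had all 3 phthalate oocytes below all 3 water oocytes. Bfsp1 had the lowest ratio of the 4644, but it was chosen for that ratio, so its rank adds no evidence. Among 2432 genes of like abundance, with 72 to 214 counts over the 6 libraries, the median log2 ratio was -0.0088, 90% lay between -0.75 and 0.68, and the lowest ratio after that of Bfsp1 was -1.57. In that set 39 genes, Bfsp1 among them, were lower by at least 2-fold. Bfsp1 alone was lower by at least 4-fold, but this too follows from how it was chosen and adds no evidence.

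The size of the Bfsp1 ratio rested on single oocytes. Phthalate oocyte 2 had 0 Bfsp1 counts of 295040, which allows up to 20.3 CPM at a limit of 3 read pairs, or 6 counts. Without it the log2 ratio was -1.50, and without phthalate oocyte 1, the phthalate oocyte with the most Bfsp1 counts, it was -3.10.

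The share of counts from Rn45s, the precursor of ribosomal RNA, also separated the groups, at 2.02% to 2.35% in the water oocytes and 2.89% to 3.54% in the phthalate oocytes. Its part in the Bfsp1 result was not tested.

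**Figure D1:**
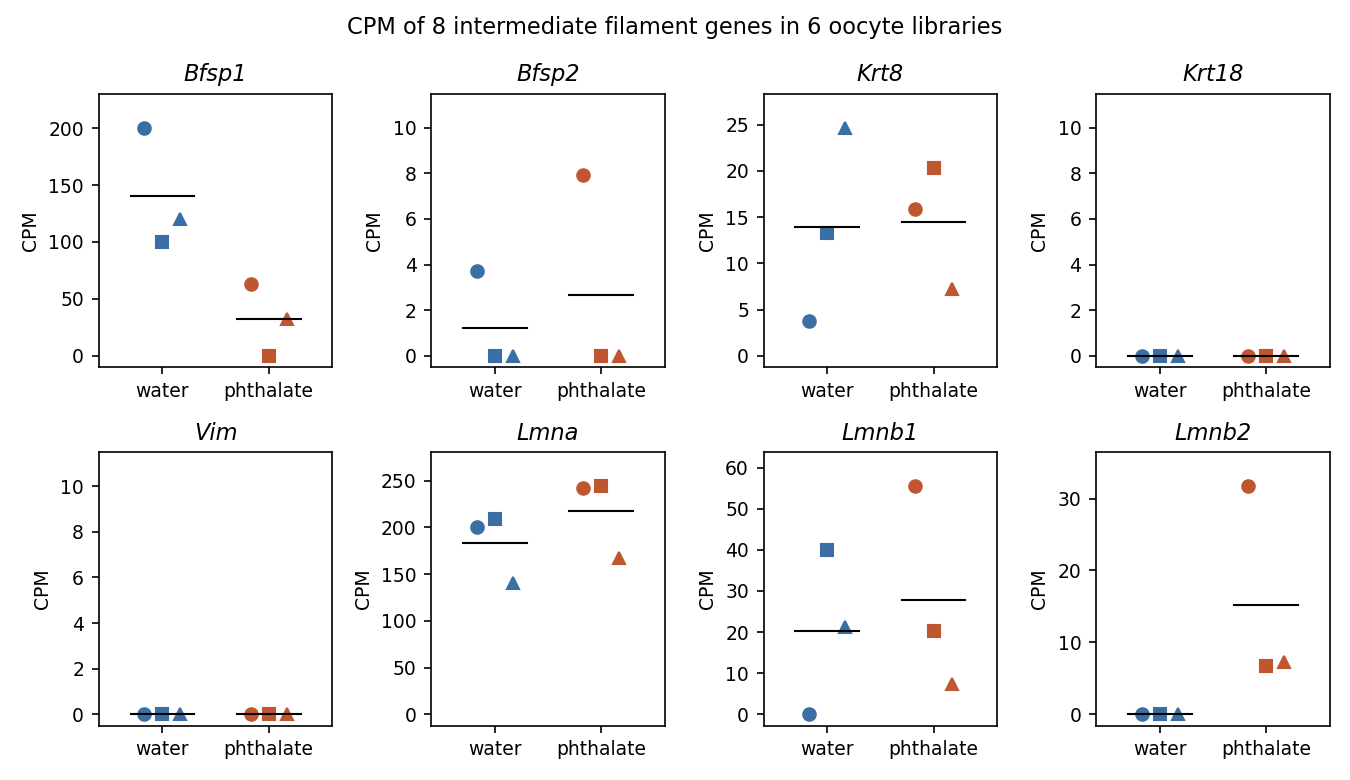
CPM of each member (vertical axes, scaled per gene) in the 3 water oocytes (blue) and the 3 phthalate oocytes (orange); circles, squares and triangles are oocytes 1, 2 and 3, and the line is the mean. Bfsp1 separates the groups, with 99.7 to 200.4 CPM in water and 0 to 63.4 in phthalate, Lmna overlaps, and Vim and Krt18 are at 0 throughout.

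Bfsp2, the lens partner of Bfsp1, was close to absent. It had 1 count in water oocyte 1, 2 counts in phthalate oocyte 1 and 0 counts in the other 4 libraries. Both group sums lie at or under 3 counts, so no ratio is given. The Bfsp1 counts of the water oocytes were therefore not matched by counts of its filament partner at this depth. The long noncoding RNA 5830418P13Rik, which overlaps Bfsp2, had 8 counts with water and 1 with phthalate.

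A list of 16 lens genes was examined because Bfsp1 is known from the lens. Of these, 13 were at 0 in every library, including all of the crystallins listed, such as Cryaa, Cryab and Cryba1, which are the main soluble proteins of the lens. No lens gene passed the filter. Lgsn, a lens protein related to glutamine synthetase, had 9, 8 and 11 counts with water and 6, 6 and 4 with phthalate. The water counts were all above the phthalate counts, but by as little as 2 counts, and the log2 ratio was -0.74. Among genes past the filter, 5.49% were separated in that direction. Gja3, a gap junction protein of the lens, had 0, 4 and 3 counts against 0, 0 and 2, and its groups overlapped. Mip, a lens water channel, had 2 counts in water oocyte 1 and 0 elsewhere.

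Vim, Krt18 and Krt8, the members known from epithelium and mesenchyme, gave almost nothing. Vim had 0 counts in all 6 libraries, which over 1676410 counts allows up to 3.58 CPM at the same limit of 3 read pairs. Krt18, a type I keratin, was likewise at 0 in all 6, with the same bound. Krt8, the type II keratin that pairs with Krt18, had 1, 4 and 7 counts with water and 4, 6 and 2 with phthalate. These Krt8 values overlapped, and both groups summed to 12 counts, a log2 ratio of 0.07 (-1.83 to 1.98). With 1 oocyte left out the ratio ran from -0.37 to 0.76, so no direction can be read for Krt8. The interval holds phthalate levels of Krt8 from 0.281-fold to 3.93-fold of the water level, so smaller differences were not detectable at this depth. Vim and Krt18 are also expressed by other cells of the ovary.

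Among the lamins, Lmna had the most counts. Lmna, which encodes lamins A and C by alternative splicing, had 54, 63 and 40 counts with water and 61, 72 and 46 with phthalate. In CPM these were 200.4, 209.4 and 141.0 against 241.8, 244.0 and 167.3, and the groups overlapped because phthalate oocyte 3 lay below water oocytes 1 and 2. The log2 ratio was 0.26 (-0.19 to 0.71), an interval that includes 0 and holds ratios from 0.875-fold to 1.64-fold. Lmna and Bfsp1 were the only members that passed the filter on low counts, so 2 of 8 entered the comparison with the other genes. Bfsp1, the gene selected for its ratio, was past 2-fold, as were 1.64% of genes in that direction, and it passed the filter through its water oocytes. Nothing is read from that count.

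Lmnb1, which encodes a B-type lamin that stays attached to membrane by its farnesyl anchor, had 0, 12 and 6 counts with water and 14, 6 and 2 with phthalate. The groups overlapped, and the log2 ratio was 0.36 (-1.05 to 1.81). Leaving out water oocyte 2 raised it to 1.33, leaving out phthalate oocyte 1 turned it to -0.55 and leaving out water oocyte 1 to -0.20, so no direction can be read for Lmnb1.

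Lmnb2, which encodes the other B-type lamin, had 0 counts in each water oocyte and 8, 2 and 2 counts in the phthalate oocytes. The groups did not overlap, but the 12 counts are about 6 read pairs, and 8 of them came from phthalate oocyte 1. The exact interval on read pairs starts at a log2 ratio of 0.31, or 1.24-fold higher in phthalate, and has no upper end. It was not computed without phthalate oocyte 1. Lmnb2 did not pass the filter on low counts. The pattern was uncommon but not confined to this gene or direction. Of 25239 genes, 9 had 0 counts in water and at least 12 in phthalate. Of these, 8, Lmnb2 among them, had a count in each phthalate oocyte. In the other direction, 11 genes had 0 in phthalate and at least 12 in water, 9 of them with a count in each water oocyte.

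**Figure D2:**
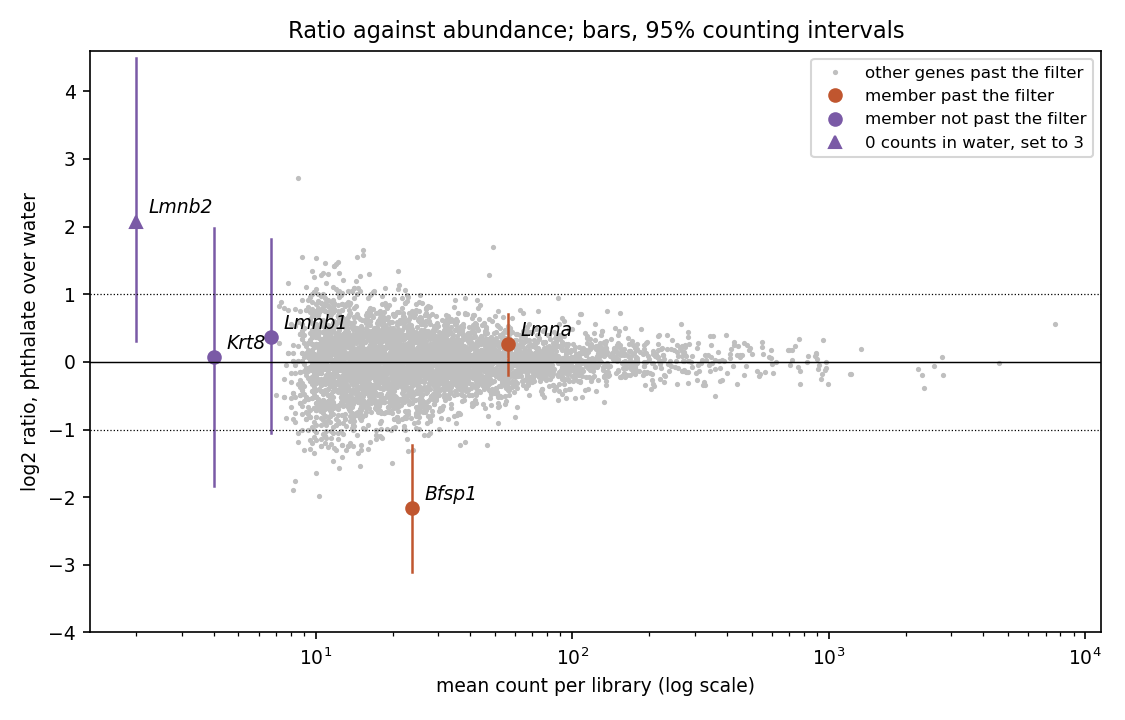
Log2 ratio of phthalate over water (vertical axis) against mean count per library (horizontal axis, log scale) for genes past the filter (grey) and for the 5 members with a ratio, with 95% counting intervals as bars and 2-fold as dotted lines. Bfsp1 lies at -2.17, below the grey points, Lmna at 0.26 lies among them, and the triangle of Lmnb2 was drawn with 3 counts in place of 0 in water, so only its interval, from 0.31 with no upper end, should be read.

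Levels of different genes were compared as CPM per kb of the longest protein-coding transcript in GENCODE M21. In the water oocytes Bfsp1 and Lmna led, with means of 59.0 (range 42.0 to 84.5) and 58.2 CPM per kb (44.7 to 66.3). Their ranges overlapped, so their order is not settled, and with the median transcript length in place of the longest the means were 61.8 and 103.2. Lmnb1 (7.15) and Krt8 (7.09) followed and overlapped each other. Bfsp2, at 0.744 (0 to 2.23) from water oocyte 1 alone, overlapped with both, and Lmnb2, Vim and Krt18 were at 0. Among 11858 genes with a length and a count in any of the 6 libraries, the Bfsp1 level per length in water stood at percentile 89.1.

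In the phthalate oocytes Lmna led. It had a mean of 69.0 CPM per kb (53.0 to 77.3) and Bfsp1 one of 13.5 (0 to 26.7), and these ranges did not overlap. Below them, Lmnb1 at 9.74 (2.56 to 19.5), Krt8 at 7.40 (3.72 to 10.4) and Lmnb2 at 4.32 (1.92 to 8.98) overlapped with Bfsp1 and with each other. Bfsp2, at 1.59 (0 to 4.77) from phthalate oocyte 1 alone, overlapped with all of these. The percentile of Bfsp1 among genes was 67.4 in phthalate, and that of Lmna was 88.9 in water and 90.4 in phthalate. Bfsp1 was chosen for its low ratio, so its lower level and percentile in phthalate restate that choice and are no separate result.

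**Figure D3:**
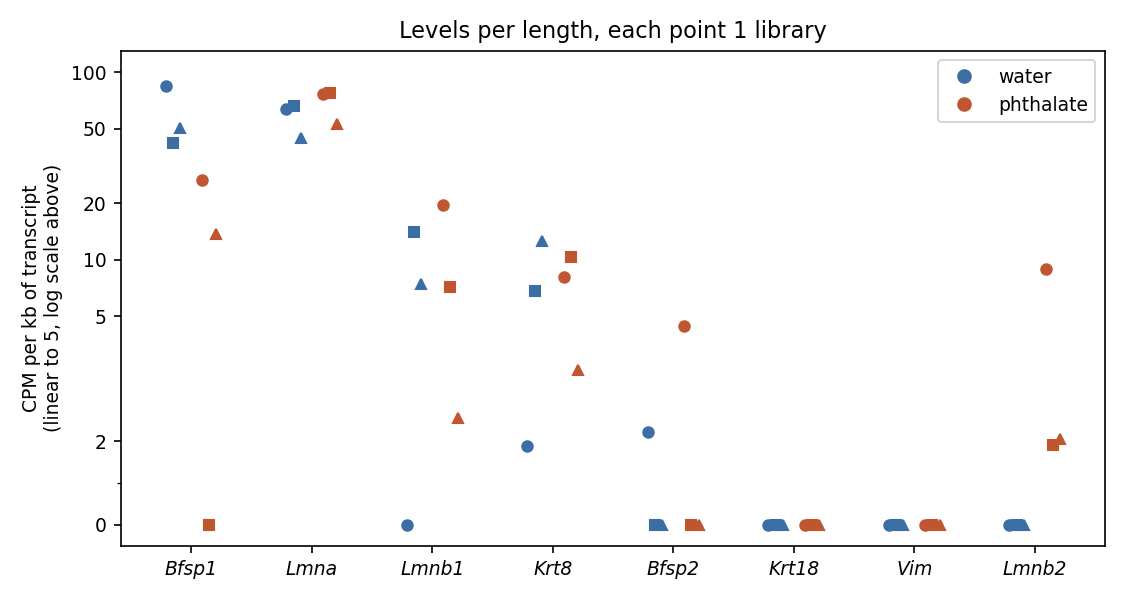
Level per length (vertical axis, CPM per kb of transcript, linear up to 5 and logarithmic above) of each member, 1 point per oocyte, water in blue and phthalate in orange, with shapes for oocytes 1 to 3. Bfsp1 and Lmna overlap in water (42.0 to 84.5 and 44.7 to 66.3), and in phthalate Bfsp1 (0 to 26.7) lies below Lmna (53.0 to 77.3). Bfsp1 was chosen for its low ratio, so this is no separate result.

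The rest of the intermediate filament family comprised 66 genes of the table, of which 47 had 0 counts in every library and 5 passed the filter. Of these 5, 1 was lower in phthalate by at least 2-fold and 0 were higher, where 1.64% and 1.14% of all genes past the filter were, and their median log2 ratio was -0.27, beside 0.0089 over all 4644 genes. The gene past 2-fold was Krt73, a type II keratin known from the inner root sheath of the hair, with 10, 13 and 12 counts with water and 4, 4 and 8 with phthalate. It passed the filter through its 3 water oocytes alone, which by itself favours a lower ratio. Its groups did not overlap, as in 5.49% of genes in that direction, and its log2 ratio of -1.06 had an interval of -2.51 to 0.18 that includes 0. The call ended when phthalate oocyte 1 was left out, at -0.93, or phthalate oocyte 2, at -0.81, while dropping phthalate oocyte 3 gave the lowest value, -1.52. It also ended on the log2(CPM + 10) scale, at -0.80. Krt12, a keratin of the cornea, was at -0.85 and passed 2-fold without phthalate oocyte 3, at -1.56. Among family genes too low for the filter, ratios went both ways. Nefh had 2, 3 and 14 counts with water and 0, 2 and 2 with phthalate, a log2 ratio of -2.18, as low as that of Bfsp1 but on far fewer counts. Krt25 had 0, 1 and 4 counts against 3, 6 and 0, a log2 ratio of 0.92.

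Krt84, a hair and tongue keratin, had the highest counts of the other keratins, with 18, 11 and 18 counts with water and 9, 18 and 13 with phthalate. Krt88 had 4, 14 and 14 counts against 4, 14 and 15. Ina, which encodes the neuronal filament protein internexin alpha, had 7, 16 and 10 counts against 10, 12 and 4. In each of these 3 genes the groups overlapped, and the log2 ratios were -0.16, 0.12 and -0.27.

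Linker proteins tie filaments to junctions, microtubules and actin. Of 14 linker genes, 9 had counts and 3 passed the filter, with none past 2-fold and a median log2 ratio of -0.18. Macf1, a giant spectraplakin that crosslinks microtubules and actin, had 32, 17 and 33 counts with water and 19, 3 and 18 with phthalate, a log2 ratio of -0.96 (-1.81 to -0.16). Its groups overlapped, and its ratio rested on single oocytes. Without phthalate oocyte 2, which had the 3 counts, it was -0.41, and it passed 2-fold without water oocyte 2 (-1.24), phthalate oocyte 1 (-1.35) or phthalate oocyte 3 (-1.29). Dst, the related spectraplakin dystonin, had 23, 30 and 21 counts against 23, 15 and 24, and Pkp4, a plakophilin of cell junctions, had 25, 7 and 20 against 14, 18 and 24. The Dst and Pkp4 values overlapped between groups, with log2 ratios of -0.18 and 0.18.

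Lamins are held to the inner nuclear membrane, to chromatin and to the cytoskeleton by partner proteins. Of 20 such genes, 17 had counts and 10 passed the filter, and none of the 10 was past 2-fold. Their median log2 ratio was -0.20, and they ranged from -0.57 to 0.11. Syne3, a nesprin, was at -0.42 and passed 2-fold without phthalate oocyte 3, at -1.02. Tor1a, an ATPase of the nuclear envelope lumen, had 169, 190 and 192 counts with water and 129, 176 and 194 with phthalate. Syne2, which encodes a nesprin that links the nucleus to the cytoskeleton, had 100, 157 and 166 counts against 98, 127 and 108, a log2 ratio of -0.27 (-0.57 to 0.03). Banf1, a small protein that bridges chromatin and lamina, had 102, 112 and 91 counts against 55, 133 and 126, and its ratio was 0.11. The groups overlapped for all 3 of these genes.

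All 5 enzymes of lamin processing had counts, and 4 passed the filter with none past 2-fold and a median log2 ratio of -0.38. Icmt, which methylates the farnesylated end of lamins, had 21, 11 and 22 counts with water and 27, 29 and 22 with phthalate. In CPM its phthalate oocytes all lay above its water oocytes, a separation in that direction that 4.52% of genes past the filter had, and its log2 ratio was 0.60 (-0.14 to 1.37). Zmpste24, the protease that matures prelamin A, had 24, 29 and 24 counts against 8, 18 and 24, a ratio of -0.55 (-1.36 to 0.19). Fnta, a subunit of the farnesyltransferase, had 12, 31 and 26 counts against 23, 12 and 4, a ratio of -0.75 (-1.61 to 0.10) that passed 2-fold without phthalate oocyte 1, at -1.49, and also without water oocyte 1. Both intervals include 0, and both genes overlapped between groups.

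The genes with a pattern most like that of Bfsp1 over the 6 libraries were found by a distance, the root-mean-square difference between log2(CPM + 10) profiles after centring each gene on its own mean, among genes averaging 20 or more counts per library. The nearest of 2783 genes was Macf1, with a difference of 0.673, followed by Cdk5 (0.804), Lgmn (0.874), Mat1a (0.876) and Gtf3c1 (0.928). The median difference over all 2783 genes was 1.45. Cdk5, a cyclin-dependent kinase best known from neurons, had 54, 48 and 54 counts with water and 30, 15 and 18 with phthalate. Lgmn, a lysosomal protease, had 49, 29 and 32 counts against 21, 11 and 25, and Mat1a, a methionine adenosyltransferase, had 52, 31 and 26 against 14, 9 and 26. Since these genes were searched for low phthalate values, their own ratios are no result.

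**Figure D4:**
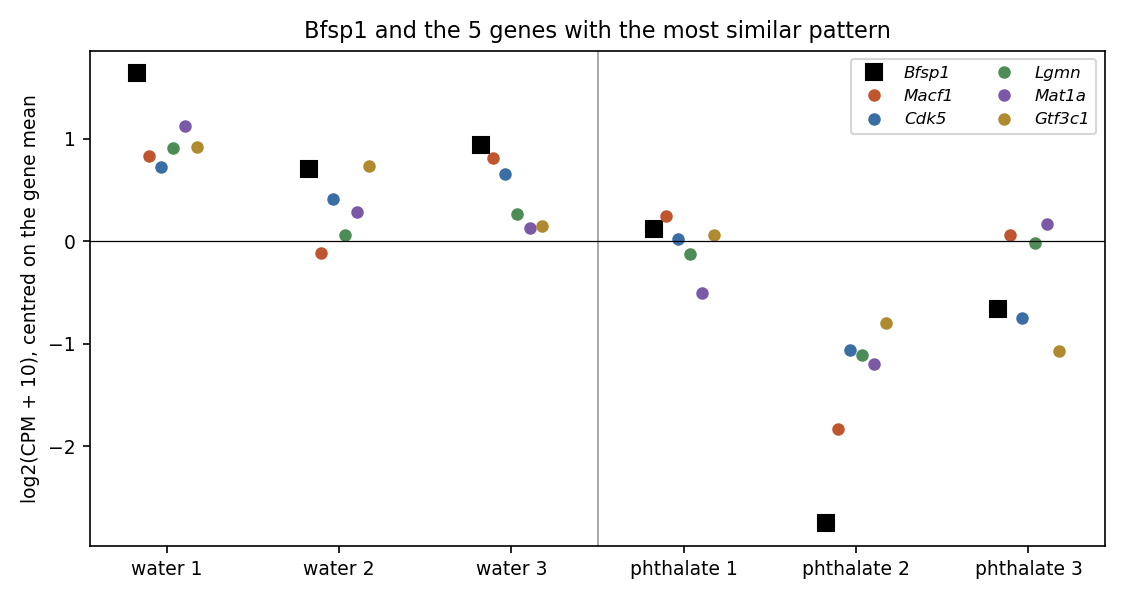
Bfsp1 (black squares) and the 5 genes with the most similar pattern (coloured circles): log2(CPM + 10) centred on the mean of each gene (vertical axis) in the 6 oocytes (horizontal axis, water on the left). Bfsp1 falls farthest in phthalate oocyte 2, where Macf1 (the nearest gene, at a difference of 0.673), Cdk5, Lgmn and Mat1a are also lowest. The search for a like pattern favours this. Gtf3c1 is lowest in phthalate oocyte 3.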

How the data were processed

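Raw counts of 25239 gene symbols and 92 ERCC spike-in RNAs in 6 libraries were deposited by the authors. The build mm10 and the tools cutadapt, Trimmomatic, HISAT2 and DESeq2 are named, without versions, per the submitters' processing notes; the counter, annotation, strand use and handling of molecular identifiers are not given in the sources used here. Reads of overlapping genes may therefore be assigned differently from what the gene names imply.

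ERCC counts were left out of totals. The counts of a group were summed over its 3 libraries and divided by the sum of its library totals after scaling with edgeR's TMM factors (version 4.0.16, under R 4.3.3). The phthalate value over the water value is the ratio, on a log2 scale and without a pseudocount. Where a group summed to 0 counts, 3 stood in its place, and no fold is given where both sums were at or under 3. Intervals are exact (Clopper-Pearson) for 2 sums given their total. The ratio and its interval were tested on data simulated with counting error only, so spread between oocytes was not part of that check. Calls are a fold of 2 among 4644 genes past filterByExpr (minimum count 10, minimum total 15). Titles gave the groups. Of the 25239 symbols, 20437 had a protein-coding length.

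Named genes were all members, the genes placed over Bfsp1, of each list the 3 most abundant genes past the filter and any past 2-fold, and the 5 genes nearest in pattern. Rn45s, 5830418P13Rik, Krt12, Nefh, Krt25, Syne3, the lens genes with counts and the markers listed at 0 were named after their values were seen. The members and lists were chosen with earlier results of these data known. Alternatives were DESeq2 1.42.0 size factors, library totals, group means of CPM, log2(CPM + 10), other filters and folds, and each library left out. The alternatives for Krt73, Macf1 and the other list genes, and the sums with Nr5a2, were chosen after seeing the data.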

Additional observations from a re-analysis of the deposited data

How the results depend on the processing

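Leaving out 1 oocyte gave a Bfsp1 log2 ratio from -3.10 to -1.50, and the other scalings and weightings gave from -2.18 to -2.10. Because the groups do not overlap for Bfsp1, its direction under these alternatives is fixed and is no sign of stability. The number of genes past 2-fold, 129, was 178 to 219 with 1 oocyte left out, 68 on the log2(CPM + 10) scale, 701 at a fold of 1.5, 2551 without a filter and 17 among genes averaging 20 or more counts per library. The filters change the number of genes entered and the lower fold widens the call; the cause of the other shifts was not tested. Lmna levels per length rose to 103.2 in water and 122.4 in phthalate with the median transcript length, which is shorter. With 252267 counts in the smallest library, 6 of the 8 members were too low for the filter. No paired analysis was possible because the results come from no test: the titles number 3 libraries per group, but the labels tie none to an animal or culture, and a group was treated as 1 sample by choice.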
